A study of Mus musculus with 12 samples.

Results

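The genes described here are 10 enteroendocrine genes, looked up by symbol in the colon count tables, where all 10 were found among 30263 genes. They are the peptide hormone genes Gcg, Pyy, Insl5, Sst, Cck and Nts, the granule protein genes Chga and Chgb, the serotonin synthesis gene Tph1 and the transcription factor gene Neurod1. The rule takes them by symbol and uses no measured value, although the list was drawn up with earlier results of these data known.

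Enteroendocrine cells are scattered hormone-secreting cells of the gut epithelium. They sense nutrients and bacterial products in the lumen and release peptides or serotonin toward nerves, neighbouring cells and the blood. In the distal gut they are mainly L cells, which make glucagon-like peptides, peptide YY and insulin-like peptide 5, enterochromaffin cells, which make serotonin, and D cells, which make somatostatin.

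RNA was sequenced from total colons of C57BL/6 mice labelled S1PR4 KO (3 libraries) and of C57BL/6 mice labelled WT (3 libraries). S1PR4 is a sphingosine 1-phosphate receptor of lymphoid and other immune cells. All 6 colons came from day 84 of a colitis-associated tumour model. Mice of both genotypes had received azoxymethane (AOM, 10 mg/kg), a carcinogen, and repeated courses of dextran sulfate sodium (DSS, 0.5%), a polymer that damages the gut epithelium, so no untreated colon serves as a reference. The labels do not say how the KO allele was made or whether each replicate was a separate animal, and p-values measure the spread between these samples. The series also holds CD8+ T cells from mammary tumours, whose tables listed 0 of the 10 genes and are not used here.

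Total counts were 7304082 to 7919107 in the KO-labelled libraries and 7492925 to 8652561 in the WT-labelled ones. The targeted gene S1pr4 stood at 19.7, 21.4 and 16.1 CPM (reads scaled to a common library size) in the libraries labelled KO, against 7.22, 6.29 and 3.13 CPM in those labelled WT. The labels would have it lower in KO, and it was higher in all 3 KO-labelled libraries (log2 1.78 ± 0.34 SE, edgeR quasi-likelihood test, unadjusted p = 0.00167 and Benjamini-Hochberg adjusted p = 0.829). The groups did not overlap, and DESeq2 called S1pr4 higher in the KO-labelled libraries (adjusted p = 0.00578). A count per gene cannot place these reads inside or outside a deleted part. Every direction below therefore rests on the labels as given. The libraries also differed in sex-linked RNA: Xist, transcribed from the inactive X chromosome, was at 515 to 591 CPM in KO replicates 2 and 3 and 545 CPM in WT replicate 1. It was at 0.894 CPM in KO replicate 1 and at 1.07 and 6.75 CPM in WT replicates 2 and 3, where the Y-linked Ddx3y was at 63.3 to 81.1 CPM. Each group thus held tissue of at least 2 animals. Hoxb13, a homeobox gene of the hindgut, was present in all 6 libraries, at 132 to 158 CPM in KO and 157 to 162 CPM in WT. WT replicate 1 stood apart in other position markers, with the lowest Cdx2 (44.9 CPM, against 115 to 162 CPM elsewhere) and the highest Hoxd13 (153 CPM, against 8.73 to 71.9 CPM elsewhere).

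Promoter sequences were matched for all 10 genes (RefSeq, GRCm38.p6, the 250 bases before the annotated start). They were searched on both strands for CAGATG (or CATCTG), the E-box type bound by NEUROD1, and for TGACGTCA, the cAMP response element. CAGATG or CATCTG was present in 3 of the 10, against 14.4% of 32851 mouse promoter windows, and TGACGTCA in 2 of the 10, against 1.55%. Counting the base before the start as −1, an E-box began at −139 and −83 before Gcg, at −178 before Insl5 and at −30 before Cck, and a cAMP response element began at −48 before Sst and at −72 before Chgb. The windows of Insl5, Sst and Chgb start from the RefSeq start and reach into the longer GENCODE transcript, whose coordinates are given below. The first 2 windows printed below belong to the L-cell hormones Gcg and Pyy and differ in these motifs, and the third to Cck, the tested member with the widest interval of its fold. Capitals mark a match, and each sequence is given 5′ to 3′ on the gene's own strand (minus): chr2:62483654-62483903 for Gcg, chr11:102107833-102108082 for Pyy and chr9:121495695-121495944 for Cck. A match is a string of letters and shows no binding, and no match says only that these letters are not in the window.
Gcg: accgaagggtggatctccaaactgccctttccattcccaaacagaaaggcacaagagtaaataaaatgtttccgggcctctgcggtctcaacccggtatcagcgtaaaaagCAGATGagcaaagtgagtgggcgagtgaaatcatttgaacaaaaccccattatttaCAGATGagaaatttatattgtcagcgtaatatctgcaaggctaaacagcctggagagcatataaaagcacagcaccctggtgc
Pyy: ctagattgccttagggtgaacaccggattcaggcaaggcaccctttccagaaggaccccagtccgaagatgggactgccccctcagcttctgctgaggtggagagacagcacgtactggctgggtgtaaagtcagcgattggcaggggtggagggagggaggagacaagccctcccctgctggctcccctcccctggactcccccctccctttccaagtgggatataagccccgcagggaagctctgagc
Cck: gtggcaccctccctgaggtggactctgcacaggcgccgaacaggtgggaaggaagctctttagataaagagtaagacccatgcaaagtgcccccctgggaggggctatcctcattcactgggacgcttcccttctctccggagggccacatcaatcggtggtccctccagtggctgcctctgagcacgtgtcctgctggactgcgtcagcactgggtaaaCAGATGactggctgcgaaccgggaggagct

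No enteroendocrine gene passed the test between KO-labelled and WT-labelled colons. Of the 9 members that passed the filter on low counts, 0 were called by edgeR's quasi-likelihood test at an adjusted p under 0.05, where 0% of 17195 tested genes were called (870 genes, 5.06%, had an unadjusted p under 0.05, and 0 members did). DESeq2 called 18 genes (0.105%), of which 0 were members, and limma-voom called 0 genes. At an unadjusted p under 0.05, DESeq2 had 5.34% of genes, limma-voom 4.63%, and either tool 0 members. The KO and WT ranges overlapped for all 10 members, against 9.58% of tested genes whose ranges did not (5.04% with KO wholly below WT). Log2 fold changes (KO over WT) were below 0 for 6 members and above 0 for 3, with a median of -0.07, against 51.0% below 0 and a median of -0.0045 over all tested genes. The members summed to 482, 415 and 451 CPM in the KO-labelled libraries and to 400, 545 and 476 CPM in the WT-labelled ones, so both the lowest and the highest sum were in WT-labelled libraries. In whole colon, a difference in the number of enteroendocrine cells and a difference in hormone RNA per cell cannot be told apart.

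**Figure D1:**
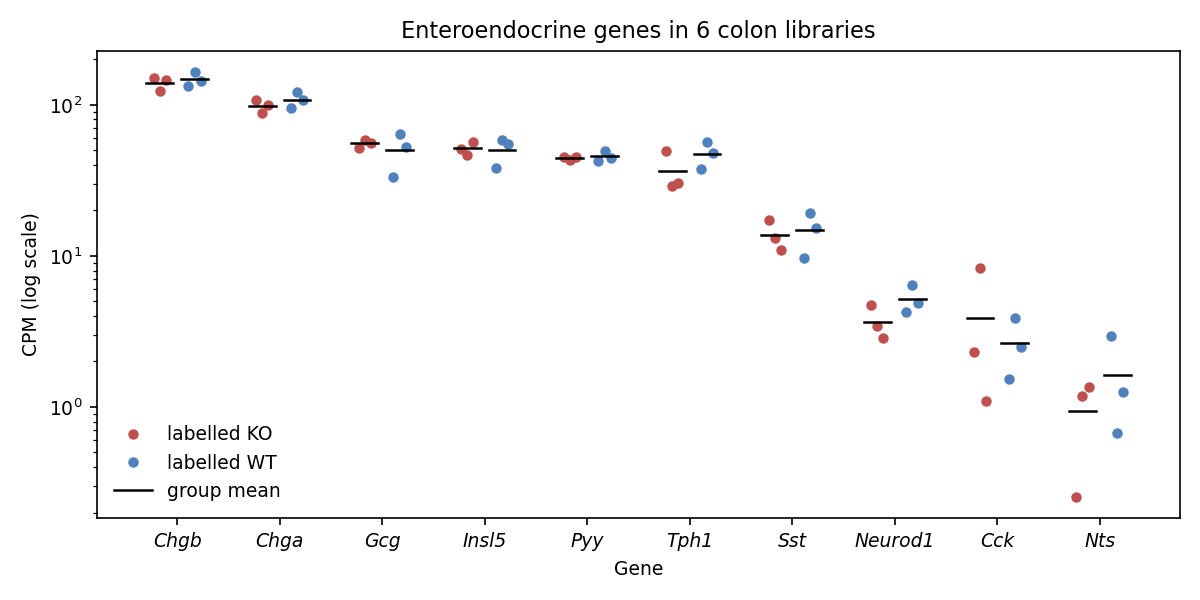
CPM (log axis) of each enteroendocrine gene in the 3 KO-labelled (red) and 3 WT-labelled (blue) colon libraries, 1 point per library, with the group mean as a bar. The groups overlap for every gene, and levels run from 165 CPM for Chgb down to 0.255 CPM for Nts.

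Chromogranin A and B are acidic proteins of the secretory granule and general markers of endocrine cells. Chga (ENSMUSG00000021194, chr12:102554969-102565028, plus strand, GRCm38) stood at 108, 88.6 and 99.8 CPM in KO and at 95.2, 122 and 108 CPM in WT. The KO values lay within or just below the WT range, with KO replicate 2 lowest and WT replicate 2 highest. Its means were 98.9 ± 9.79 CPM in KO and 109 ± 13.6 CPM in WT (SD, n = 3 each), a fold of 0.911 (log2 -0.13 ± 0.12 SE, 95% interval of the fold 0.745 to 1.11, edgeR adjusted p = 0.859). Chgb (ENSMUSG00000027350, chr2:132781278-132795079, plus strand) stood at 151, 124 and 146 CPM in KO and at 134, 165 and 143 CPM in WT. The same libraries were lowest and highest as for Chga, and the groups overlapped. The fold of Chgb was 0.953 (log2 -0.07 ± 0.11 SE, 95% interval of the fold 0.789 to 1.15, edgeR adjusted p = 0.911). Chgb to Chga ratios of CPM stayed close, at 1.4, 1.4 and 1.46 in KO and at 1.41, 1.35 and 1.32 in WT.

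Gcg encodes proglucagon, which L cells cleave into the glucagon-like peptides. Gcg (ENSMUSG00000000394, chr2:62474530-62483650, minus strand) stood at 52.1, 58.2 and 56.2 CPM in KO and at 33.5, 63.7 and 52.4 CPM in WT. The KO libraries were close together, and WT held both the lowest library (replicate 1) and the highest (replicate 2). Mean levels were 55.5 ± 3.12 CPM in KO and 49.8 ± 15.3 CPM in WT (SD, n = 3 each), with a fold of 1.11 (log2 0.16 ± 0.23 SE, 95% interval of the fold 0.757 to 1.64, edgeR adjusted p = 0.903). The sign of this fold rested on 1 library, with a log2 of -0.05 without WT replicate 1.

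Peptide YY, a second L-cell product, slows gut transit and lowers appetite. Pyy (ENSMUSG00000017311, chr11:102106676-102107832, minus strand) stood at 45.2, 43.1 and 45.1 CPM in KO and at 42.7, 49.1 and 44.8 CPM in WT. These were the tightest values of any member, with a coefficient of variation of 2.62% in KO and 7.16% in WT. The fold was 0.977 (log2 -0.03 ± 0.09 SE, 95% interval of the fold 0.835 to 1.14, edgeR adjusted p = 0.949).

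Insulin-like peptide 5 is an L-cell peptide of the colon that acts through the receptor RXFP4. Insl5 (ENSMUSG00000066090, chr4:103017872-103026842, minus strand) stood at 51.2, 46.6 and 56.9 CPM in KO and at 38.2, 58.2 and 55.1 CPM in WT. As with Gcg, WT replicate 1 was lowest and WT replicate 2 highest, with the KO libraries between them. Means were 51.6 ± 5.19 CPM in KO and 50.5 ± 10.8 CPM in WT (SD, n = 3 each), with a fold of 1.02 (log2 0.03 ± 0.18 SE, 95% interval of the fold 0.755 to 1.38, edgeR adjusted p = 0.977). Without WT replicate 1 the log2 value was -0.12.

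Somatostatin, the D-cell hormone, restrains the release of other gut hormones. Sst (ENSMUSG00000004366, chr16:23889573-23890958, minus strand) stood at 17.2, 13.2 and 11 CPM in KO and at 9.7, 19.3 and 15.4 CPM in WT. The lowest and highest libraries were again WT replicates 1 and 2. Its fold was 0.937 (log2 -0.09 ± 0.31 SE, 95% interval of the fold 0.56 to 1.57, edgeR adjusted p = 0.955).

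Cholecystokinin, which drives gallbladder contraction and satiety, is made mainly by cells of the upper small intestine. Cck (ENSMUSG00000032532, chr9:121489824-121495694, minus strand) stood at 2.3, 8.33 and 1.09 CPM in KO, from 18, 63 and 8 reads, and at 1.54, 3.88 and 2.5 CPM in WT, from 13, 29 and 20 reads. KO held both the highest library (replicate 2) and the lowest (replicate 3). The fold was 1.48 (log2 0.57 ± 0.77 SE, 95% interval of the fold 0.406 to 5.43, edgeR adjusted p = 0.892), and the log2 value was -0.63 without KO replicate 2. Neurotensin, made by N cells and most abundant in the ileum, was close to the limit of detection. Nts (ENSMUSG00000019890, chr10:102481756-102490486, minus strand) had 2, 9 and 10 reads in KO (0.255, 1.19 and 1.36 CPM) and 25, 5 and 10 reads in WT (2.96, 0.669 and 1.25 CPM). WT replicate 1 was highest and the other 5 libraries overlapped. Nts did not pass the filter and was not part of the fit, and a 2-sided exact permutation test of its mean CPM gave p = 0.5 ( 0.1 is the smallest that 3 against 3 can give).

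Tryptophan hydroxylase 1 is the rate-limiting enzyme of serotonin synthesis in enterochromaffin cells, and mast cells also express it. Tph1 (ENSMUSG00000040046, chr7:46644641-46672537, minus strand) stood at 49.8, 29.1 and 30.4 CPM in KO and at 37.7, 56.6 and 48.3 CPM in WT. KO replicates 2 and 3 were below every WT library, and KO replicate 1 was within the WT range. Means were 36.4 ± 11.6 CPM in KO and 47.5 ± 9.44 CPM in WT (SD, n = 3 each), with a fold of 0.767 (log2 -0.38 ± 0.26 SE, 95% interval of the fold 0.496 to 1.19, edgeR unadjusted p = 0.188, adjusted p = 0.829). Without KO replicate 1 the log2 value was -0.68 (edgeR unadjusted p = 0.0143, adjusted p = 0.151), in a fit where 20.9% of 17539 genes had an unadjusted p under 0.05. Tph1 per Chga was 0.46, 0.328 and 0.304 in KO and 0.396, 0.462 and 0.446 in WT, with the same KO pair lowest.

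NEUROD1 is a basic helix-loop-helix factor that acts downstream of NEUROG3 in the formation of enteroendocrine cells. Neurod1 (ENSMUSG00000034701, chr2:79452521-79456751, minus strand) stood at 4.72, 3.44 and 2.86 CPM in KO, from 37, 26 and 21 reads, and at 4.26, 6.42 and 4.88 CPM in WT, from 36, 48 and 39 reads. As for Tph1, KO replicates 2 and 3 were below every WT library and KO replicate 1 was within the WT range. The fold was 0.711 (log2 -0.49 ± 0.29 SE, 95% interval of the fold 0.435 to 1.16, edgeR unadjusted p = 0.142, adjusted p = 0.829). Its annotated exons share 201 bases with Cerkl on the same strand, which had 2 to 5 reads in KO and 2 to 7 in WT, and 154 bases with the antisense lincRNA Gm26755. Neurod1, Tph1 and Chga kept a negative log2 value in each of the 6 fits that left out a library and were not called in any. Their values were -0.72 to -0.31 for Neurod1, -0.68 to -0.24 for Tph1 and -0.21 to -0.04 for Chga.

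**Figure D2:**
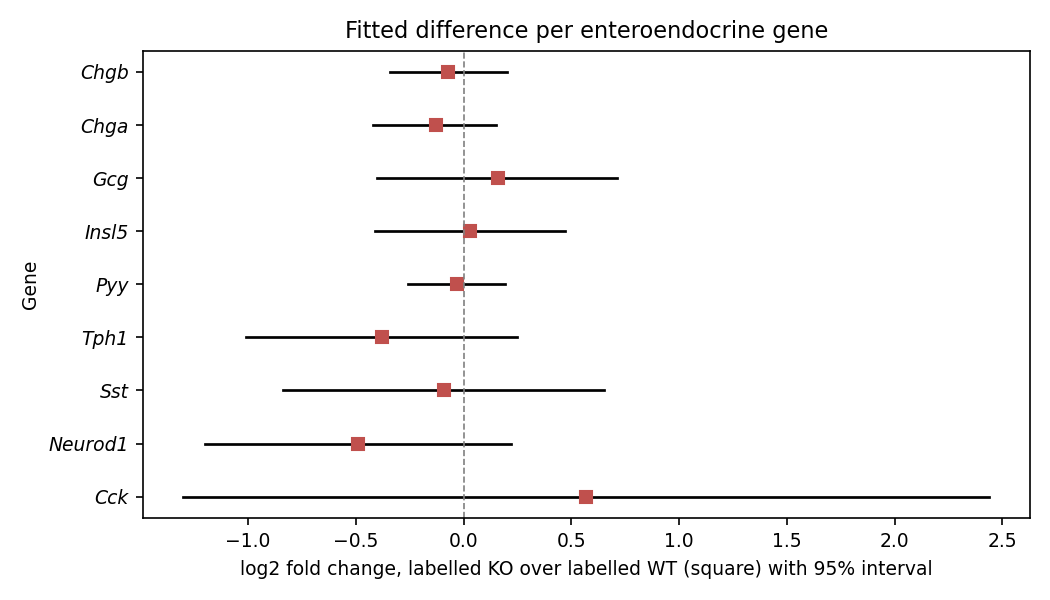
Fitted log2 fold change, labelled KO over labelled WT (squares), with its 95% interval (lines) for the 9 enteroendocrine genes that passed the filter, from edgeR over 17195 genes with 3 libraries per group. Every interval includes 0; Pyy has the narrowest (-0.26 to 0.19) and Cck the widest (-1.30 to 2.44).

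Per kilobase of annotated exon, the 2 L-cell hormones Pyy and Insl5 were the highest members. Mean levels over the 6 libraries were 71.3 CPM per kb for Pyy and 70.5 for Insl5, and Pyy was above Insl5 in 3 of the 6 libraries, so their order was not resolved. Chgb followed at 52.5 CPM per kb, then Chga at 37.6 and Gcg at 35.3, with Chga above Gcg in 4 libraries. Sst was at 19.8 CPM per kb, and its range lay wholly above that of Tph1, at 6.8. This order rests on the divisor, the exons of all annotated transcripts, which is 721 bases for Sst and 6172 for Tph1. Without it the order was reversed, with Tph1 at 29.1 to 56.6 CPM and Sst at 9.7 to 19.3 CPM. Which transcripts the colon used was not determined. Cck, Neurod1 and Nts were lowest, at 2.51, 1.62 and 1.03 CPM per kb, with overlapping ranges between neighbours. Apart from Chgb over Chga and Sst over Tph1, the range of each member overlapped that of the next.

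Gcg, Pyy and Insl5 together made up most of the reads of the 6 member hormones in every library. The 6 hormone genes summed to 1318, 1290 and 1261 reads in KO and to 1087, 1456 and 1371 reads in WT, or 0.0166%, 0.0175% and 0.0173% of all reads in KO and 0.0126%, 0.0194% and 0.0169% in WT. The L-cell trio held 88.2%, 86.7% and 92.1% of those hormone reads in KO and 89%, 87.8% and 88.8% in WT. Shares are of reads, so longer transcripts weigh more. Gcg took 31%, 34.1% and 32.8% of hormone reads in KO and 26%, 32.7% and 30.6% in WT. Gcg was the largest share in 3 libraries, Insl5 in 2 and Pyy in WT replicate 1, where Pyy took 33.2% (95% Clopper-Pearson interval 30.4 to 36.1) and 25.2% to 26.9% in the other 5 libraries. Cck took 4.88% (3.77 to 6.21) in KO replicate 2 and 0.634% to 1.99% elsewhere. Nts took 2.3% (1.49 to 3.38) in WT replicate 1 and 0.152% to 0.793% elsewhere. These intervals cover counting error only. The share of Gcg averaged 32.6 ± 1.58% in KO and 29.8 ± 3.4% in WT (SD, n = 3 each), a difference of 2.84 percentage points (2-sided exact permutation p = 0.2). For the other 5 hormones the difference ran from -2.05 points (Pyy) to 0.746 points (Cck), with exact permutation p from 0.5 to 1, and 0 of the 6 shares passed (every Benjamini-Hochberg adjusted p = 1). With 3 against 3 libraries the test cannot go below 0.1.

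**Figure D3:**
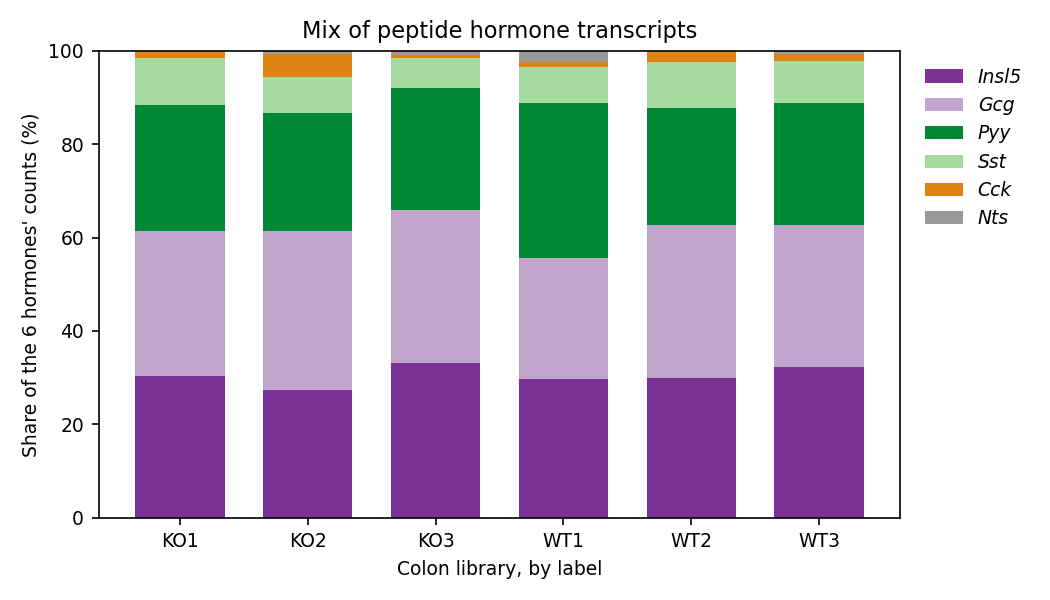
Share of each peptide hormone gene in the summed reads of the 6 hormone genes, stacked to 100% for each colon library. Insl5, Gcg and Pyy fill 86.7% to 92.1% of every bar; KO2 has the widest Cck band (4.88%) and WT1 the widest Pyy (33.2%) and Nts (2.3%) bands.

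The highest and lowest values of the members were gathered in a few libraries of both labels. WT replicate 2 was the highest library for 8 of the 10 members (Chga, Chgb, Gcg, Pyy, Sst, Neurod1, Insl5 and Tph1). WT replicate 1 was the lowest for Gcg, Pyy, Sst and Insl5 and the highest for Nts. KO replicate 2 was the lowest for Chga, Chgb and Tph1 and the highest for Cck, and KO replicate 3 the lowest for Cck and Neurod1. The share of all genes that were highest or lowest in each library is not given here. These counts are therefore no trait particular to the members. The mean centred log2 CPM of the 9 tested members was 0.08, 0.03 and -0.24 in KO and -0.29, 0.34 and 0.08 in WT. Each member has the same weight in this mean, and Cck varied most within groups. Cck had 63 reads in KO replicate 2 and 8 reads in KO replicate 3. The mean was not computed without Cck, so the order of these KO libraries in it is not resolved. The marker sum of the epithelium, which holds enteroendocrine cells, also differed between libraries. The 11 epithelial markers summed to 2068, 2235 and 2102 CPM in KO and to 1890, 2263 and 2097 CPM in WT, and were lowest in WT replicate 1 and highest in WT replicate 2. Of these, 0 were called, 8 had a log2 above 0 and 3 below, and their median was 0.03, with Krt18 at 0.08 ± 0.09, Epcam at 0.07 ± 0.08, Krt19 at 0.04 ± 0.06 and Cdx2 at 0.30 ± 0.44 (SE, log2). The part of epithelial content in the members' values was not tested.

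Genes with the most similar profile over the 6 libraries were named by the root mean square difference from the members' mean centred log2 CPM, among 12338 genes. The nearest were Dact2 (0.046), Ahcyl2 (0.052), Cth (0.054), Pxmp2 (0.055), Lrrc66 (0.060), Tmem171 (0.062), Mier1 (0.064) and Fcho1 (0.065). A flat profile had a difference of 0.213, and 3259 genes were nearer than that, so likeness over 6 libraries was common. Dact2, for example, stood at 68.9, 67.2 and 56.5 CPM in KO and 56.5, 80 and 72.5 CPM in WT, with WT replicate 1 and KO replicate 3 lowest and WT replicate 2 highest, as for the members' mean. That likeness is to the mean, which rests partly on Cck in KO replicates 2 and 3, and not to each member. Among the members, KO replicate 3 was the lowest library only for Cck and Neurod1, and KO replicate 2 was the lowest for Chga, Chgb and Tph1.

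**Figure D4:**
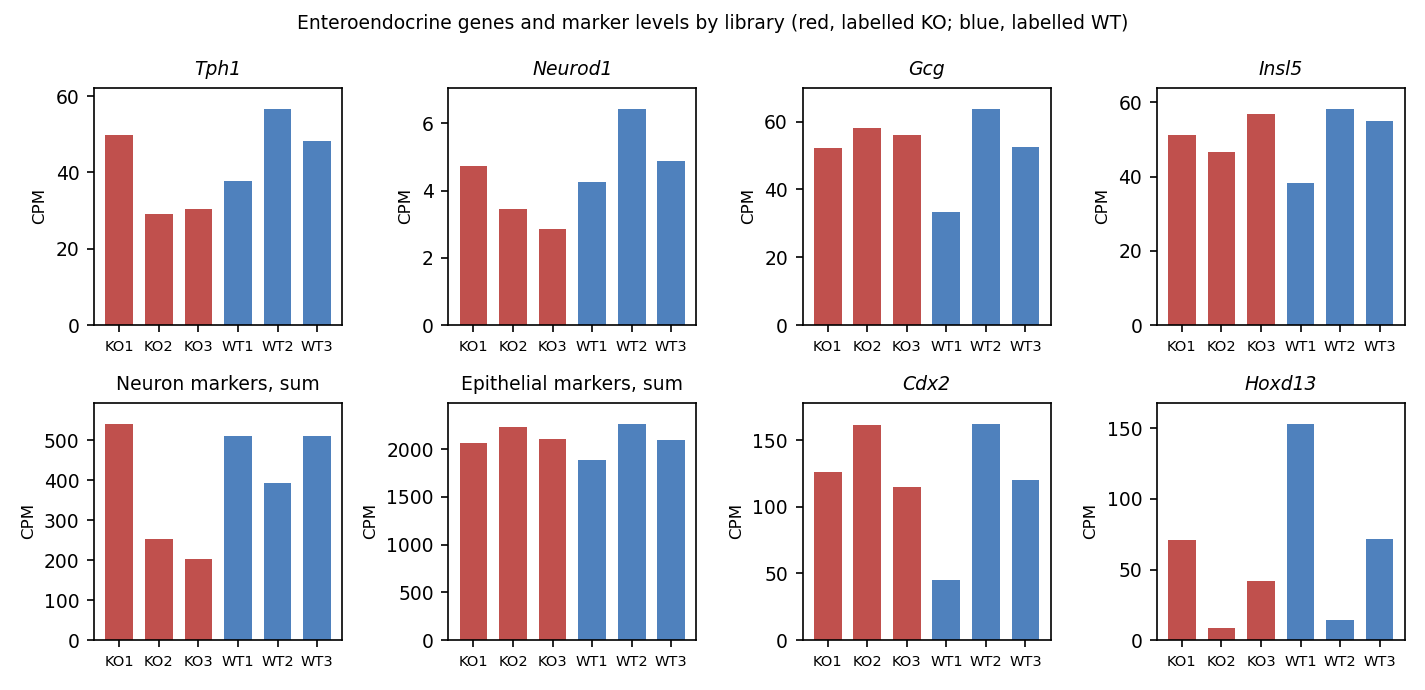
CPM per colon library (linear axes from 0; KO1 to KO3 in red, WT1 to WT3 in blue) of 4 enteroendocrine genes, the summed neuron and epithelial markers, and the position markers Cdx2 and Hoxd13. Tph1, Neurod1 and the neuron sum (254 and 203 CPM) are low in KO2 and KO3; Gcg, Insl5, the epithelial sum (1890 CPM) and Cdx2 (44.9 CPM) are low in WT1.

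Transcription factors of the enteroendocrine lineage were measured for all 21 listed genes, of which 0 were called, 6 had a log2 above 0 and 15 below (median -0.17). Neurog3, the factor that starts endocrine differentiation, stood at 4.98, 3.17 and 3 CPM in KO and at 4.61, 5.08 and 5.63 CPM in WT. KO replicate 1 overlapped the WT range and KO replicates 2 and 3 were below it, the order also seen for its target Neurod1 (log2 -0.46 ± 0.28 SE for Neurog3). Sox4, a factor of endocrine progenitors that other cells express widely, stood at 70.3, 113 and 137 CPM in KO and 75.2, 76.2 and 71.1 CPM in WT (log2 0.53 ± 0.23 SE). Rfx3, of islet and endocrine development, had a log2 of 0.45 ± 0.24 (SE). Isl1, a LIM homeobox factor of endocrine cells and neurons, stood at 11.7, 4.76 and 6.4 CPM in KO and at 31.5, 6.55 and 8 CPM in WT, and its log2 of -1.01 ± 0.69 (SE) was 0.08 without WT replicate 1. The smallest edgeR adjusted p in the list was 0.829.

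Prohormone processing and granule cargo genes gave 0 calls among 21, with 2 above and 19 below 0 and a median of -0.38. Scg2, a granin, stood at 58.5, 23 and 22.9 CPM in KO and at 58.4, 51.2 and 56 CPM in WT, so KO replicates 2 and 3 were low and KO replicate 1 was level with WT (log2 -0.67 ± 0.38 SE). KO replicates 2 and 3 were also below every WT library for Resp18 (log2 -0.48 ± 0.25 SE), Scgn, the calcium sensor secretagogin (-0.60 ± 0.39), and Scg5, the chaperone of the convertase PCSK2 (-0.42 ± 0.28). Pcsk1, the convertase that makes glucagon-like peptides, stood at 29.4, 35.2 and 25.1 CPM in KO and at 25.4, 33.8 and 25 CPM in WT and is named outside the rule for named genes. Neurons also express many of these genes, and the 16 neuron markers were low in the same KO pair. They summed to 540, 254 and 203 CPM in KO and to 510, 393 and 510 CPM in WT, with 0 called, 15 of 16 below 0 and a median of -0.59. Examples were Prph at -0.86 ± 0.51, Stmn2 at -0.64 ± 0.40 and Uchl1 at -0.62 ± 0.36, with Ret at 0.27 ± 0.18 (SE, log2). The 3 glia markers, with S100b at -0.63 ± 0.41, Gfap at -0.43 ± 0.42 and Sox10 at -0.28 ± 0.71 (SE, log2), summed to 40.6, 18.1 and 10.3 CPM in KO and 38.4, 20.1 and 33.6 CPM in WT, with a median of -0.43. The 8 smooth muscle markers, with Synpo2 at -0.69 ± 0.53, Myh11 at -0.35 ± 0.27, Smtn at -0.30 ± 0.23 and Cnn1 at -0.14 ± 0.11 (SE, log2) among them, summed to 1863, 1499 and 1013 CPM in KO and 2122, 1575 and 1745 CPM in WT, with a median of -0.18. Leaving out KO replicate 1 gave the processing list a median of -0.75, and it was -0.20 without replicate 2 of KO and -0.14 without replicate 3. What part the neuron content had in these values was not tested.

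Serotonin synthesis, transport and breakdown gave 0 calls among 8 tested genes of 9, with 3 above and 5 below 0 and a median of -0.05. Slc6a4, the serotonin reuptake transporter, stood at 66.5, 23.7 and 24.1 CPM in KO and at 66.6, 60.3 and 67.8 CPM in WT. KO replicate 1 was within the WT range and the other KO libraries were far below it (log2 -0.77 ± 0.42 SE). Slc18a1, the vesicular monoamine transporter of endocrine cells, ran the other way, at 13.3, 39.9 and 101 CPM in KO and at 21.4, 15.6 and 13 CPM in WT (log2 1.62 ± 0.69 SE). Maob, which breaks down amines, stood at -0.55 ± 0.27, and Ddc, which completes serotonin synthesis, at -0.21 ± 0.12 (SE, log2). Mast cell markers, 8 of 10 tested above 0 with 0 called and a median of 0.28, summed to 233, 299 and 340 CPM in KO and to 202, 319 and 208 CPM in WT. Of these, Ms4a2 had a log2 of 1.97 ± 0.98, Cpa3 of 0.76 ± 0.58, Kit of 0.23 ± 0.20 and Mcpt4 of -0.82 ± 0.81 (SE), and their part in the Tph1 level was not tested. Of the 6 tested serotonin receptors 0 were called and 5 were below 0 (median -0.33). Htr7 was at 2.43, 2.12 and 2.31 CPM in KO and 3.67, 2.67 and 2.5 CPM in WT (log2 -0.37 ± 0.26 SE). These came from 19, 16 and 17 reads in KO and 31, 20 and 20 reads in WT. Htr7 was the 1 gene of the 6 whose ranges did not overlap, against 9.58% of all tested genes. Htr3a, a subunit of the channel through which serotonin excites nerves, stood at 27.1, 6.48 and 3.95 CPM in KO and at 22.1, 18.9 and 28.6 CPM in WT (log2 -0.89 ± 0.70 SE). Its partner Htr3b stood at 4.6, 0.265 and 0.136 CPM in KO and at 3.9, 3.21 and 3.63 CPM in WT (log2 -1.08 ± 1.04 SE). The Htr3b values came from 36, 2 and 1 reads in KO and 33, 24 and 29 reads in WT. For both Htr3a and Htr3b, KO replicate 1 was near or within the WT range and the other KO libraries were below it. Without KO replicate 1 the log2 values were -2.15 for Htr3a and -4.05 for Htr3b, the latter from 2 and 1 reads in KO. In that fit 20.9% of 17539 genes had an unadjusted p under 0.05. Htr1b had a log2 of 0.83 ± 0.81 (SE).

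Receptors for nutrients and bacterial products, the sensors of these cells, gave 0 calls among 9 tested of 11 listed, with 3 above and 6 below 0 and a median of -0.14. Lpar5, a receptor for lysophosphatidic acid, stood at 35.6, 32.1 and 33.9 CPM in KO and at 37.9, 37.8 and 36.3 CPM in WT, with a log2 of -0.14 ± 0.10 (SE). Lpar5 was the 1 gene of the 9 whose ranges did not overlap, against 9.58% of all tested genes. The short-chain fatty acid receptors Ffar2 and Ffar3 had log2 values of 0.59 ± 0.60 and 0.27 ± 0.24 (SE). Ffar2, which neutrophils also express, was lowest in WT replicate 1, at 10.8 CPM. Sstr5, a somatostatin receptor of L cells, is counted in this list although it answers a member hormone, and had a log2 of -0.42 ± 0.37 (SE). Receptors that answer the members' own hormones, listed without Sstr5, gave 0 calls among 10 tested of 17 listed, with 1 above and 9 below 0 and a median of -0.24. Glp2r, the receptor for glucagon-like peptide 2, stood at 48, 19.7 and 10.8 CPM in KO and at 42.2, 26.6 and 51.1 CPM in WT (log2 -0.61 ± 0.55 SE). Sstr1 stood at -0.99 ± 0.65, the peptide YY receptor gene Npy1r at -0.34 ± 0.41 and the neurotensin-binding Sort1 at -0.06 ± 0.07 (SE, log2). Rxfp4 and Glp1r, the receptors of insulin-like peptide 5 and glucagon-like peptide 1, did not pass the filter and were at 0 to 0.272 CPM in KO and 0 to 0.25 CPM in WT. These receptor lists gave a smallest edgeR adjusted p of 0.829.

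Of 14 other gut peptide genes, 12 were in the tables and 10 were tested, with 0 called, 5 above and 5 below 0 and a median of -0.01. Ppy, pancreatic polypeptide, stood at 16.5, 18 and 9.8 CPM in KO and at 15.5, 25.9 and 23.4 CPM in WT, with overlapping groups (log2 -0.55 ± 0.30 SE, edgeR adjusted p = 0.829). WT replicate 2, its highest library, also held acinar pancreas RNA: Ctrb1, a digestive protease, was at 74.9 CPM there, against 0 to 3.32 CPM in KO and 0.237 and 2 CPM in the other WT libraries. Pancreatic islet hormones were near absent from it, with Ins2 at 0.134 CPM and Iapp at 0.535 CPM. Penk, Vip and Nmu, peptides mainly of enteric neurons, had log2 values of -0.44 ± 0.29, -0.51 ± 0.41 and -0.51 ± 0.45 (SE).

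Count density was a possible further limit for the most concentrated members. The highest count per annotated exon base of any gene was between 0.919 and 0.973 in each library, so that no gene exceeded 1 read per base. Pyy averaged 0.554, Insl5 0.546 and Chgb 0.408 counts per base and were among 1176 genes above 0.3. Chga (0.292), Gcg (0.272) and Sst (0.154) were below that, and Tph1 (0.053), Cck (0.0193), Neurod1 (0.0126) and Nts (0.00815) far below. Among genes averaging 300 to 450 reads, the median SD of log2 CPM within groups was 0.179 for the 1082 genes below 0.1 counts per base, 0.144 for the 740 genes from 0.1 to 0.3 and 0.109 for the 69 genes above 0.3. Against these, the SD was 0.0767 for Pyy, 0.254 for Insl5, 0.339 for Gcg and 0.367 for Tph1. With counts expanded as if reads were limited to 1 per base, an alternative chosen after the data were seen, Pyy stood at -0.07 and Insl5 at 0.01 (log2) and 0 genes were called. Apart from that alternative, whether such a limit acted on the folds or levels of the dense members was not tested. All 11 epithelial markers were above 0.3 as well, at 0.383 to 0.759.

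**Figure D5:**
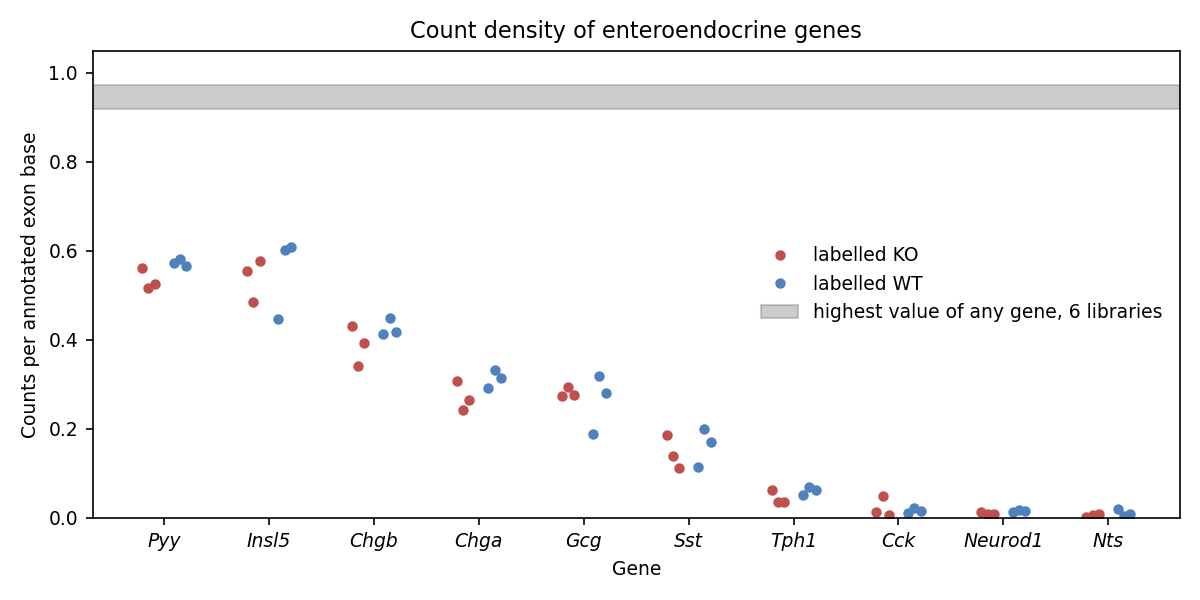
Counts per annotated exon base of each enteroendocrine gene in the 3 KO-labelled (red) and 3 WT-labelled (blue) libraries; the grey band spans the highest value of any gene in the 6 libraries (0.919 to 0.973). Pyy (mean 0.554) and Insl5 (0.546) lie nearest the band, and Tph1, Cck, Neurod1 and Nts lie at or below a mean of 0.053.

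Within the Xist-high libraries (KO replicates 2 and 3, WT replicate 1) and the Y-linked ones (KO replicate 1, WT replicates 2 and 3), the label difference was computed separately, with 1 library on one side of each. For Gcg the log2 difference KO minus WT was 0.77 among the Xist-high and -0.15 among the Y-linked libraries, and for Insl5 it was 0.43 and -0.15. The interaction was -0.93 for Gcg (edgeR adjusted p = 0.182) and -0.58 for Insl5 (edgeR adjusted p = 0.269). Neurod1 stood at -0.41 and -0.23, Tph1 at -0.34 and -0.07 and Chga at -0.02 and -0.09 in the same order, below 0 in both sets. The processing list had a median of -0.73 among the Xist-high and 0.17 among the Y-linked libraries, and the neuron markers of -1.34 and 0.23. The interaction test called 0 of 17195 genes (0%), with 19.4% at an unadjusted p under 0.05, and 0 of the 9 members. The interaction cannot be told apart from single libraries, since WT replicate 1 is the only Xist-high WT library and KO replicate 1 the only Y-linked KO library. With Xist status as a covariate, Neurod1 stood at -0.34 ± 0.26 and Tph1 at -0.21 ± 0.13 (SE, log2), and 0 genes were called.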

How the data were processed

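The measurements are RNA-seq read counts of 6 total colon libraries, 3 labelled S1PR4 KO and 3 labelled WT, grouped by title and genotype label. The deposited values are whole-number counts per Ensembl gene with no normalisation, per the file headers. The authors' processing named STAR, TopHat2, RSEM, HTSeq and DESeq2 and the builds mm10 and GRCm38, without versions or roles, per the submitters' processing notes. Handling of duplicates and of strand is not given in the sources used here, so overlapping and antisense genes may share reads. Library preparation of the colons was left to a core facility, per the labels' protocols.

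IDs were matched to GENCODE vM21 (99.8% matched), and 26 had no symbol. The test was edgeR's robust quasi-likelihood F test (edgeR 4.0.16, R 4.3.3) after filterByExpr and TMM scaling, with Benjamini-Hochberg adjustment over 17195 genes and a threshold of 0.05. CPM values are TMM-scaled, and log2 values are labelled KO over labelled WT with the standard error (SE). Alternatives were DESeq2 1.42.0, limma-voom (limma 3.58.1), other scalings and filters, a replicate block, Xist status as a covariate and each library left out. Members and gene lists were chosen with earlier results of these data known. Beyond the members, the text names the 4 genes per list with the smallest p and the 8 genes with the nearest profile. Other named genes (Hoxd13, Pcsk1, Rxfp4, Glp1r, Cerkl, Gm26755, Ghrl, Sct, Ins2, Iapp, Pnlip, Cel, Cpa1, Prss2 and Slc9a3) were chosen after their values were seen. Some listed markers are not reported here, and their list was computed without them. Chi-square per degree of freedom between replicates of a group was 5.19 to 21.9, above sampling noise, and each library counts as its own sample.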

Additional observations from a re-analysis of the deposited data

How the results depend on the processing

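DESeq2 called 18 genes, none a member; edgeR called 0 under the other scalings, filters and covariates and without each library, and limma-voom called 0. The Xist interaction called 1 gene, Slc9a3, with total counts as the only scaling (log2 -2.91, adjusted p = 0.0484). With Xist status as a covariate, Sst stood at 0.15 and Gata4, a small intestine marker, at 0.27 (log2), against -0.09 and -0.36. Leaving out each library in turn moved the log2 value across 0 for 6 members: from -0.13 to 0.02 for Chgb, -0.05 to 0.37 for Gcg, -0.07 to 0.02 for Pyy, -0.31 to 0.14 for Sst, -0.63 to 1.02 for Cck and -0.12 to 0.14 for Insl5. It did so for Isl1 (-1.46 to 0.08), Htr1b (-0.03 to 1.68), Sox10 (-1.34 to 0.16), Cdx2 (-0.07 to 0.70), Ctrb1 (-5.23 to 0.48), Gata4 (-0.83 to 0.16) and Hoxd12 (-3.49 to 0.92). KO minus WT shares of hormone reads ran from -3.54 to 0.467 points for Pyy, -1.71 to 0.196 for Sst, -0.549 to 1.58 for Cck, -1.73 to 1.2 for Insl5 and -0.967 to 0.0111 for Nts. The cause of these shifts was not tested. Same-numbered libraries did not pair (correlations of -0.0391, 0.214 and -0.233), KO replicate 1 correlated best with WT replicate 3 (0.33), and with the replicate block 0 genes were called. No hormone share could pass under the block, since the exact sign-flip permutation test of 3 pairs cannot go below p = 0.25. Depth limits the members Nts (2 to 25 reads), Cck (8 to 63) and Neurod1 (21 to 48), and beyond the members Htr3b (1 to 36).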

Other observations

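Ghrl, the gene of the appetite hormone ghrelin, was too low to be tested. It stood at 1.02, 0.926 and 1.5 CPM in KO and 0.828, 0.802 and 0.625 CPM in WT, so its scaled values did not overlap. These came from 8, 7 and 11 reads in KO and 7, 6 and 5 reads in WT, so the reads themselves met at 7. Among tested genes, which Ghrl is not, 9.58% did not overlap. Ghrl was picked after its values were seen. Secretin (Sct) stood at 5.23, 8.86 and 5.58 CPM in KO and at 3.67, 9.63 and 7 CPM in WT (log2 -0.04 ± 0.41 SE, n = 3 each), lowest in WT replicate 1 and highest in WT replicate 2, as were Gcg and Insl5.

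Small intestine markers, which mark gut upstream of the colon, gave 0 calls among 7 tested genes of 10 in the tables, with 3 above and 4 below 0. Rbp2 and Fabp6, both of absorptive cells, had log2 values of -0.65 ± 0.32 and -0.90 ± 0.50 and Defa24, a Paneth cell defensin, of 1.74 ± 1.14 (SE), with Gata4 at -0.36 ± 0.69. Fabp6, highest in the ileum, was at 20 CPM in WT replicate 1, the library with the most Nts reads, against 5.17 to 7.54 CPM in the other 5 libraries. The list as a whole did not follow Fabp6. The 10 markers summed to 429, 330 and 251 CPM in KO and to 374, 351 and 353 CPM in WT, highest in KO replicate 1. Gata4 was lowest in WT replicate 1, at 0.473 CPM, and Rbp2 stood at 26.9 CPM there, within the range of the other libraries. Posterior HOX genes gave 0 calls among 11 tested genes, with 4 above and 7 below 0. Their sum was 615, 585 and 589 CPM in KO and 813, 578 and 597 CPM in WT, highest in WT replicate 1. Hoxa11 had a log2 of 0.52 ± 0.30, Hoxb9 of 0.18 ± 0.13, Hoxb13 of -0.13 ± 0.08 and Hoxd12 of -2.19 ± 1.53 (SE), the last 54.8 CPM in WT replicate 1 and at most 9.45 CPM elsewhere.

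In WT replicate 2 the acinar pancreas genes Pnlip, Cel, Cpa1 and Prss2 stood at 69.1, 63.4, 59.5 and 46.3 CPM, against at most 1.91 CPM in the other 5 libraries. Cela1, listed with them, stood at 92.9 to 105 CPM in KO and 98.7 to 115 CPM in WT, with its highest value also in WT replicate 2.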
